A study of Homo sapiens with 6 samples.

Results

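Microexons are very short exons that the splicing machinery joins between longer ones. The exon annotation deposited for U-87 MG cells was searched for internal microexons of 27 bases or less, and it held 781 among 124779 distinct internal exons, or 6.26 per 1000. An exon was a member if it was 3 to 27 bases long, was neither the first nor the last exon of an isoform, and overlapped no neighbouring exon. Length and position therefore chose the members and are given as a description. The members came from 681 host genes, which were 5.74% of the 11869 genes with at least 1 internal exon (95% Wilson interval 5.33 to 6.17). All 781 members were used. The other 123998 internal exons, of 28 bases or more, are the comparison, as are the 10340 of them that lie in the same host genes.

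U-87 MG is an established human glioma cell line. RNA came from 3 libraries of cells given EPZ015666 at 10 uM for 72 h, a compound that blocks PRMT5, which methylates arginines in splicing proteins and histones, and from 3 libraries of cells given the vehicle DMSO (10 ul in 10 ml of medium) for 72 h. Poly(A)-selected RNA was sequenced, and the submitters describe the resulting annotation as one of detained introns and consensus coding isoforms. It is a single list in hg19 coordinates made for both groups together, so it holds no level, depth or replicate error, and EPZ015666 was not compared with DMSO. Every statement below is about which exons and introns were listed for these cells.

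A microexon in coding sequence adds only a few amino acids, and, as with any coding exon, the codons after it stay in frame if its length is a multiple of 3. Microexons are best known from neurons, where the splicing factor SRRM4 (nSR100), helped by SRRM3 and RBFOX proteins, promotes their inclusion in genes of vesicle traffic, the cytoskeleton, adhesion and chromatin. Outside neurons many of these are skipped, which means that the upstream exon is joined directly to the downstream one across a single longer intron.

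The following listed microexons show what was found, in genes that other studies know as microexon hosts. The sequences are from GENCODE v29 transcripts (GRCh38), where an exon of the same length with both flanking introns of the same length was present. Capitals mark the microexon and lower case the 15 bases of the spliced transcript on each side.
ABI1, an adaptor of actin assembly (chr10:26771075-26771089, minus strand): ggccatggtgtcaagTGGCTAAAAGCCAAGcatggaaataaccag
SPTAN1, alpha-spectrin of the membrane skeleton (chr9:128609651-128609665, plus strand): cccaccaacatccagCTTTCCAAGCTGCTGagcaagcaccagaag
NFASC, the adhesion molecule neurofascin (chr1:204991292-204991306, plus strand): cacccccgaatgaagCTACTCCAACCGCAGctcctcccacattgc
CADPS, a priming factor of dense-core vesicles (chr3:62467298-62467312, minus strand): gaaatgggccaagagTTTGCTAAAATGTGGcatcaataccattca
CADPS2, its paralog (chr7:122386295-122386309, minus strand): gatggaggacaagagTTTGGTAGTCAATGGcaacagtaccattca
DNM1, a dynamin that cuts endocytic vesicles from the membrane (chr9:128239985-128239996, plus strand): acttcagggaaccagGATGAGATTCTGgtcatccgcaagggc
DNM2, its paralog (chr19:10808569-10808580, plus strand): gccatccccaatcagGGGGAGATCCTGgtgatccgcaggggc
MEF2D, a transcription factor (chr1:156476494-156476514, minus strand): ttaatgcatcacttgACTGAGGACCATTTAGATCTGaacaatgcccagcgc
CPEB2, an RNA-binding regulator of translation (chr4:15040464-15040487, plus strand): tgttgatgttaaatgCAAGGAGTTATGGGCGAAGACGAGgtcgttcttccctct

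The next set shows reference microexons of the same kinds of genes that the annotation listed as skipped: an intron was present whose length equals that of the intron joining both neighbours of the microexon in the reference, and the microexon itself was not listed. The exons shown here, and CADPS2 above, were chosen after their values were seen. Capitals again mark the microexon.
KDM1A, a histone demethylase also called LSD1 (chr1:23066060-23066071, plus strand): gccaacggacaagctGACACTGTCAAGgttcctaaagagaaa
TAF1, a subunit of the general transcription factor TFIID (chrX:71455007-71455012, plus strand): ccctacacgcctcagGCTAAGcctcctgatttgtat
APBB1, an adaptor of the amyloid precursor protein (chr11:6401977-6401982, minus strand): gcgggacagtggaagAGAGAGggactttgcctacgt
CPEB4, the paralog of CPEB2 (chr5:173943026-173943049, plus strand): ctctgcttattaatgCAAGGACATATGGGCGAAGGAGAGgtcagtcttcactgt
EIF4G1, a scaffold of translation initiation (chr3:184316713-184316733, plus strand): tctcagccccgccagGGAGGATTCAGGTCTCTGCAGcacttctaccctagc
MEF2A, a relative of MEF2D (chr15:99703362-99703385, plus strand): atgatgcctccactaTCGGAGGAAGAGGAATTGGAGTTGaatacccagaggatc
MEF2C, another relative (chr5:88730211-88730234, minus strand): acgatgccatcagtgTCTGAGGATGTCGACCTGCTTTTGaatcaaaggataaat
ITSN1, an endocytic scaffold (chr21:33802430-33802444, plus strand): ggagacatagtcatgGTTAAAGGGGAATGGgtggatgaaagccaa
L1CAM, a neural adhesion molecule (chrX:153873228-153873242, minus strand): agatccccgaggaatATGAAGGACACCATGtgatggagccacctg

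Paralogs with similar microexons did not all stand on the same side of this division. The 24-base microexons of CPEB2, listed as included, and CPEB4, listed as skipped, share 20 of 24 bases (83.3%). MEF2A and MEF2C, both listed as skipped, share 15 of 24 (62.5%). The included exons of DNM1 and DNM2 shown here share 9 of 12 (75%), and those of CADPS and CADPS2 share 9 of 15 (60%). DNM1 has another included 12-base exon, which shares 2 of 12 bases with that of DNM2 and 7 of 12 (58.3%) with the skipped exon of DNM3, a further dynamin. These pairs were picked by hand from the sequences shown and stand for no larger set.

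Most of the 781 microexons lay near the upper end of the length range. Their median length was 23 bases, against 123 bases for the other internal exons. Only 13 had 11 bases or less, and 94 had 12 to 15. Counts at neighbouring lengths differed in steps: 15 exons had 14 bases, 28 had 15, 13 had 16, 24 had 17 and 47 had 18. The same steps recurred higher up, with 37 exons of 22 bases, 59 of 23, 91 of 24, 61 of 25, 66 of 26 and 148 of 27. Just past the limit, 73 exons had 28 bases and 134 had 29. The counts at 12, 15, 18, 21, 24 and 27 bases each exceeded those at the neighbouring lengths within the range.

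Of the 781 microexons, 427 had a length that is a multiple of 3, or 54.7% (95% Wilson interval 51.2 to 58.1). The share was 43.7% in the other internal exons of the host genes and 39.1% in all other internal exons, and neither value lay within the microexons' interval. Of the 25 lengths from 3 to 27 bases, 9 are multiples of 3. The range also ends on such a length, and 27 bases alone gave 148 of the 781 microexons, against 66 at 26 bases. The share therefore depends in part on ending the range at 27 bases, and it was not computed for a range ending at 26. The same holds for the shares of multiples of 3 among microexons given further below. In the class of 12 to 15 bases, both end lengths are multiples of 3. These make up more of its lengths than in the other classes, so its share below is not directly comparable with theirs. By length class, the share was 70.2% in 94 exons of 12 to 15 bases, 56.1% in 212 exons of 16 to 21 and 51.7% in 462 exons of 22 to 27. It was 45.9% in 758 exons of 28 to 33 bases and 38.7% in 42388 exons of 100 to 150 bases. The 13 exons of 11 bases or less did not follow this order, since only 3 of them were multiples of 3 (23.1%, 95% Wilson interval 8.18 to 50.3). Intervals here cover counting error only, and exons of the same gene are not independent.

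**Figure D1:**
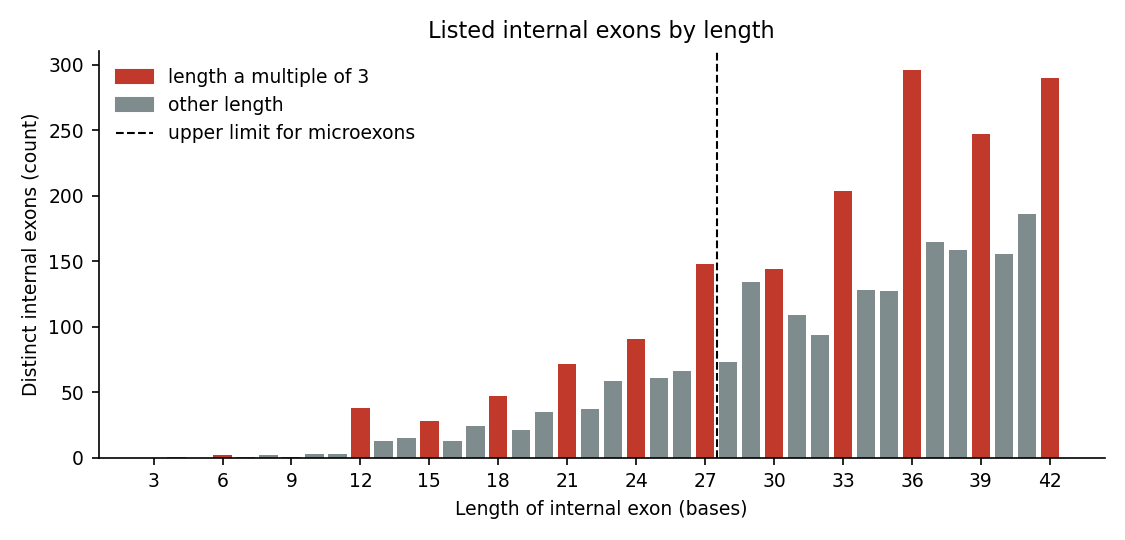
Number of distinct internal exons (vertical axis) at each length in bases (horizontal axis), with multiples of 3 in red and other lengths in grey; the dashed line is the upper limit for microexons. Red bars stand above their neighbours from 12 bases on, and the bar at 27 bases reaches 148 exons.

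A total of 540 microexons, or 69.1% (95% Wilson interval 65.8 to 72.3), were found in the GENCODE v29 gene of the same name with the same exon length and both flanking intron lengths. The share was 85.1% for the other internal exons and 85.6% for those of the host genes. A further 48 microexons matched in length and in 1 flanking intron. For 164 (21%), the reference gene had no internal exon of that length, against 6.61% of the other internal exons. The shorter the class, the fewer were found: 2 of 13 of 11 bases or less, 53.2% of 12 to 15 bases, 66.0% of 16 to 21 and 75.3% of 22 to 27.

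Among the 540 found, 497 lay wholly in coding sequence (92.0%, 95% Wilson interval 89.4 to 94.0), against 92.4% of the other internal exons found. A further 17 lay in a 5′ UTR (3.15%, against 1.37%), 4 in a 3′ UTR, 10 at the edge of the coding sequence and 12 in noncoding transcripts. The frame-keeping lengths were more frequent among those that code. Of the 497 coding microexons, 301 were multiples of 3 (60.6%, 95% Wilson interval 56.2 to 64.8), against 45.1% of the coding exons of the host genes and 40.1% of all other coding exons. Of the 43 that were not wholly coding, 15 were multiples of 3 (34.9%), near the 33.5% of the other exons of that kind. Of the 241 not found, 111 were multiples of 3 (46.1%, 95% Wilson interval 39.9 to 52.4).

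The 301 coding microexons that keep the frame also differed in where they cut the codon. The upstream exon ended on a complete codon in 45.2% of them (95% Wilson interval 39.7 to 50.8), against 59.9% of the other coding internal exons with such a length. It ended after the first base of a codon in 38.2%, against 26.9%. In base content the coding microexons had 47.7% G and C, against 50.2% in the other coding exons, and 31.2% A, against 27.2%. The base before the downstream donor site was G in 79.5% of the 497 microexons (95% Wilson interval 75.7 to 82.8) and in 77997 of the 97506 other coding exons, which lies within that interval. Exons ending in AG were fewer, at 48.7% (95% Wilson interval 44.3 to 53.1) against 56.2%.

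No intron of the deposited annotation skipped a microexon, and none skipped any other internal exon: the counts were 0 of 781 and 0 of 123998 (0%). As the list holds no skipping intron at all, these counts put no limit on skipping in the cells. Of the microexons, 370 lay in a gene with at least 2 distinct isoforms. These genes gave 1126 pairings of a microexon with an isoform, of which 954 included the microexon, 147 ended before reaching it and 7 held it only inside a longer exon. A further 18 listed both the microexon and, as their last row, a longer exon that contains it. In 276 of the 370, every isoform included it with no longer exon around it. The sources used here do not say how the isoforms to list were chosen.

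A longer alternative form was listed for 18 microexons (2.30%, 95% Wilson interval 1.46 to 3.61), against 2.02% of the other internal exons and 1.64% of those in the host genes, both within that interval. Each of these lay inside a longer exon of its gene, and all 25 of the longer exons were the last exon of an isoform. In 17 of the 18, a longer exon began at the same splice acceptor. Named after their values were seen, they include CLTC, the clathrin heavy chain, whose 21-base exon lies in final exons of 147 and 1561 bases. NRP2, a neuropilin receptor of guidance cues and growth factors, has a 21-base exon that starts a final exon of 10375 bases. CD55, a complement regulator, has a 21-base exon in a final exon of 1370 bases. CCNL2, a cyclin of splicing kinases, has a 14-base exon in a final exon of 515 bases. Of all microexons, 10 had at least 2 listed downstream introns (1.28%, against 0.837%), and 0 had at least 2 upstream introns.

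The reference shows which of these exons are skipped in other human transcripts. Of the 540 microexons found there, 246 lay within an intron of another reference transcript of the gene, or 45.6% (95% Wilson interval 41.4 to 49.8). The share was 18% in the host genes' other internal exons and 19.9% in all other internal exons. By length it was 68.0% at 12 to 15 bases, 45.7% at 16 to 21 and 42% at 22 to 27, and in longer exons 35.8% at 28 to 33 bases and 18.7% at 100 to 150. Both exons of 11 bases or less that were found were skipped in the reference. Among coding microexons, 152 of 301 that keep the frame were skipped there (50.5%, 95% Wilson interval 44.9 to 56.1), against 64 of 196 that do not (32.7%, 26.5 to 39.5). In the other coding exons the corresponding shares were 19.5% and 17.0%.

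**Figure D2:**
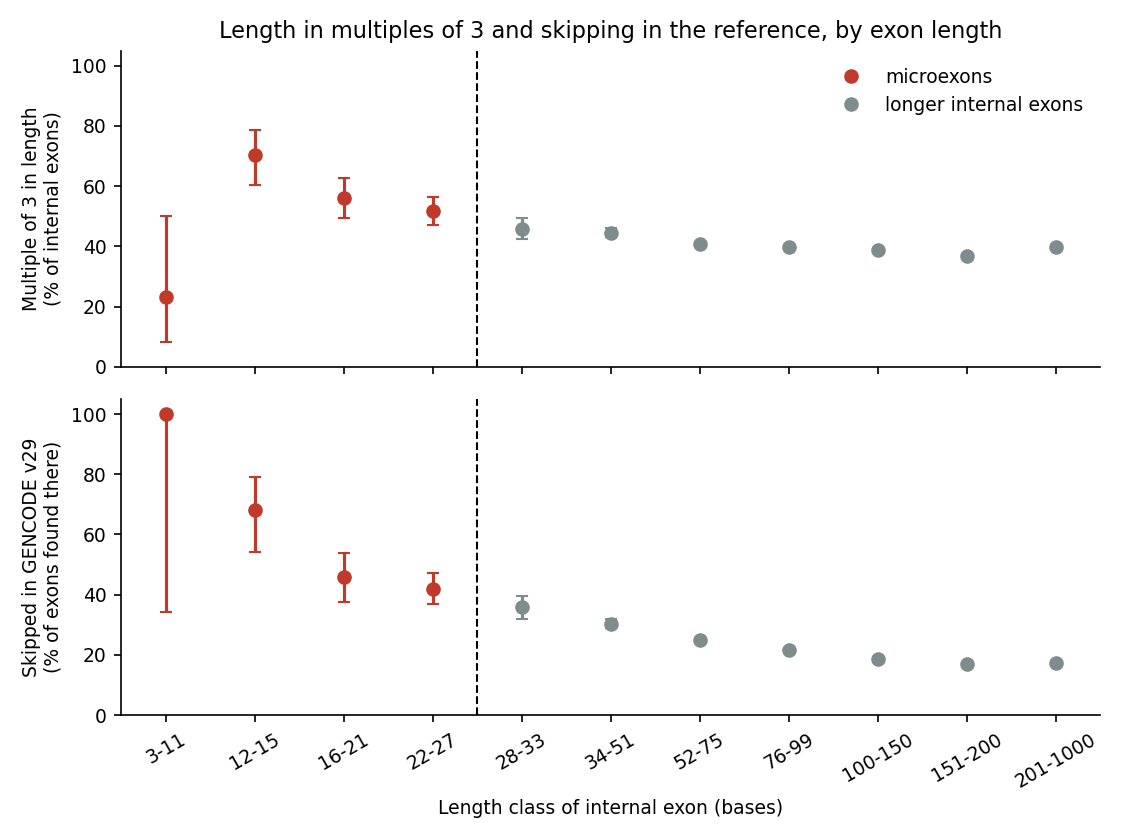
Share of internal exons with a length in multiples of 3 (top) and share of those found in GENCODE v29 that lie in an intron of another transcript there (bottom), in percent, by length class in bases; points are shares, bars 95% Wilson intervals, red microexons and grey longer exons, split by the dashed line. Both shares decline from 70.2% and 68.0% at 12 to 15 bases to 38.7% and 18.7% at 100 to 150 bases. Multiples of 3 make up more of the lengths in the class of 12 to 15 bases than in the other classes. Its top share is therefore not directly comparable with theirs. The class of 3 to 11 bases holds 13 exons, 2 of them found.

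The question was then turned round, from the exons listed to those the reference holds. GENCODE v29 has 548 coding microexons in listed genes that it both includes between 2 exons and skips by joining the same exons. The annotation for U-87 MG listed 160 of them as included and 228 as skipped, 0 as both, and 160 as neither. Since no listed intron skips a listed internal exon, an exon could count as both only through a coincidence of lengths. Of the 388 with an answer, 58.8% were thus listed as skipped (95% Wilson interval 53.8 to 63.6). The share was 10.1% for 9510 cassette exons of 28 to 1000 bases (9.48 to 10.7), 22.8% for 863 of 28 to 51 bases and 9.94% for 6446 of 52 to 150 bases. The 228 skipped microexons were read from 216 distinct introns in 196 genes, since some share a skipping intron.

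Almost all of the shortest cassettes with an answer were listed as skipped. An exon counted as included only if its length and both flanking introns matched, whereas 1 intron length sufficed for skipped. How well reads across exons this short were aligned was not tested, so the listing is no measure of inclusion in the cells. Reference cassettes of 3 to 11 bases numbered 106, and 41 of them had neither form listed. Of 65 microexons of 3 to 11 bases with an answer, 63 were skipped (96.9%, 95% Wilson interval 89.5 to 99.2), against 165 of 323 of 12 to 27 bases (51.1%, 45.7 to 56.5). At 9 bases, 31 were skipped and 1 included. At 12 bases the counts were 31 and 8, at 15 bases 23 and 11, at 18 bases 20 and 14, at 21 bases 23 and 25, at 24 bases 27 and 30, and at 27 bases 32 and 39. Among these multiples of 3, more were included than skipped from 21 bases on. Frame also went with the listing: 216 of 345 multiples of 3 were skipped (62.6%, 57.4 to 67.5), against 12 of 43 others (27.9%, 16.7 to 42.7). The 9-base and 6-base cassettes listed as included, 1 each, were those of PSAP and PHB2.

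**Figure D3:**
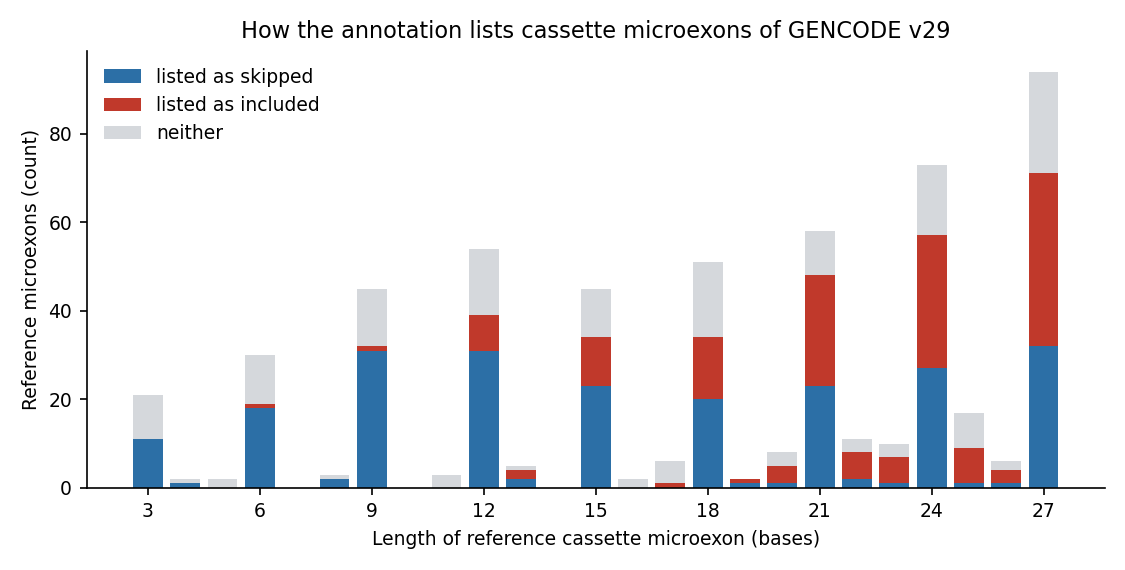
Number of GENCODE v29 cassette microexons in listed genes (vertical axis) by length in bases (horizontal axis), with blue for those the U-87 MG annotation lists as skipped, red for included and grey for neither. At 9 bases 31 were skipped and 1 included, whereas at 27 bases 32 were skipped and 39 included; lengths that are not multiples of 3 hold few cassettes.

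Genes known for microexons in neurons gave 76 of these cassettes, of which 45 were listed as skipped, 15 as included and 16 as neither. The skipped share was 75% of 60 (95% Wilson interval 62.8 to 84.2), against 55.8% of 328 in all other genes (50.4 to 61.1). The 45 skipped exons were read from 40 distinct introns in 30 genes, since some share a skipping intron. The intervals did not overlap, but they count exons that share an intron as independent. In chromatin and transcription, the KDM1A exon was skipped by an intron of 9371 bases, the TAF1 exon by 3383, the MEF2A exon by 16300, and the 24-base MEF2C exon by 2381. MEF2D, by contrast, had its microexon included. In translation control, the CPEB4 exon was skipped by an intron of 12466 bases and the EIF4G1 exon by 1102. In adhesion and guidance, L1CAM had both its 12-base and its 15-base exon skipped, NCAM1 its 3-base and 15-base exons, and NRCAM its 18-base exon. PTPRD, a receptor phosphatase of synapses, had 5 reference microexons of 9 to 18 bases skipped, 2 of which are versions of the same exon, and its 27-base exon included. In vesicle traffic, ITSN1 and SYNJ1 were listed as skipped, as was the exon of DNM3 by an intron of 70178 bases. Neither form was listed for the 18-base exon of SRC, a tyrosine kinase, or the 21-base exon of EIF4G3, a scaffold of translation initiation.

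The neuronal host genes also had listed microexons. Of 52 listed genes of that group, 18 had at least 1 microexon (34.6%, 95% Wilson interval 23.2 to 48.2), against 5.74% of all genes, and in 16 of the 18 it was found in the reference. This group was defined by known microexons, so a share above that of all genes was built into the list. Cytoskeletal members were ABI1 (15 bases), SPTAN1 (24, 15 and 18 bases), CLASP1 (24 and 27), CLASP2 (18 and 24) and DCTN1 (21). CLASP proteins hold microtubule plus ends, and DCTN1 is the large subunit of the dynein partner dynactin. The guidance and adhesion members were the ligand SLIT2 (24 bases), its receptor ROBO1 (27), NFASC (18 and 15), PTPRD (27) and PTPRS (12 and 18). SGCE, a sarcoglycan, had an exon of 27 bases. The signalling and vesicle members were GIT1 (27 bases), an Arf GTPase-activating protein, VAV2 (22 and 17), a guanine nucleotide exchange factor, and CADPS (15). The nuclear members were MEF2D (21 bases) and PHF21A (23), a reader protein of the KDM1A complex, and CPEB2 (24) acts on translation. The DCTN1, PHF21A and 18-base PTPRS exons matched the reference in 1 flanking intron only. CADPS shows that a gene can be on both sides, since its 15-base exon was included and reference microexons of 9, 12 and 21 bases were skipped. In VAV2 a 15-base exon was skipped. Its listed 22-base and 17-base exons are not skipped in the reference, so they are not among the cassettes.

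The other gene groups differed in how often they hosted a listed microexon. Receptor tyrosine phosphatases had a microexon in 7 of 15 genes (46.7%, 95% Wilson interval 24.8 to 69.9), among them PTPRA with 27 bases, PTPRB with 18 and PTPRE with 23. Actin and spectrin genes had one in 11 of 48 (22.9%, 13.3 to 36.5), including the formins DIAPH1 with 27 bases and DIAPH2 with 21, and the spectrin anchor ANK2 with 22. Adhesion genes had one in 9 of 41 (22%, 12 to 36.7), including the cadherin partner CTNND1 with 18 bases. For these groups the whole interval lay above the 5.74% of all genes. The gene groups, here and below, were not matched to all genes in number of exons. In genes with 5 or more introns the share was 6.73%.

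Microtubule and motor genes hosted a microexon in 7 of 40 (17.5%, 8.75 to 32.0), with an 18-base exon in the linker DST. Kinases hosted one in 8 of 53 (15.1%, 7.85 to 27.1), with 27 bases in both MARK2 and MARK3, kinases of microtubule-associated proteins, 24 in CSNK1G3 and 22 in CAMKK2. In translation control it was 4 of 32 (12.5%, 4.97 to 28.1): CPEB2, and TNRC6A, TNRC6B and TNRC6C, partners of Argonaute, each with an exon of 22 bases. The 3 TNRC6 exons share their length, and 2 of them matched the reference fully. Endocytosis genes had 5 of 42 (11.9%, 5.19 to 25), and in AMPH, a partner of dynamin, 2 exons of 24 bases were listed next to each other. Transcription and chromatin genes had 4 of 55 (7.27%, 2.86 to 17.3), with NCOR1, a corepressor, at 27 bases and SETD2, a histone methyltransferase, at 14. In 2 of these 4 genes a microexon was found in the reference, and the SETD2 exon had no reference exon of its length. The intervals of the microtubule genes and the kinases lay above 5.74%, and those of the other 3 groups of this paragraph included it. The groups share genes, so they are not independent of each other.

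**Figure D4:**
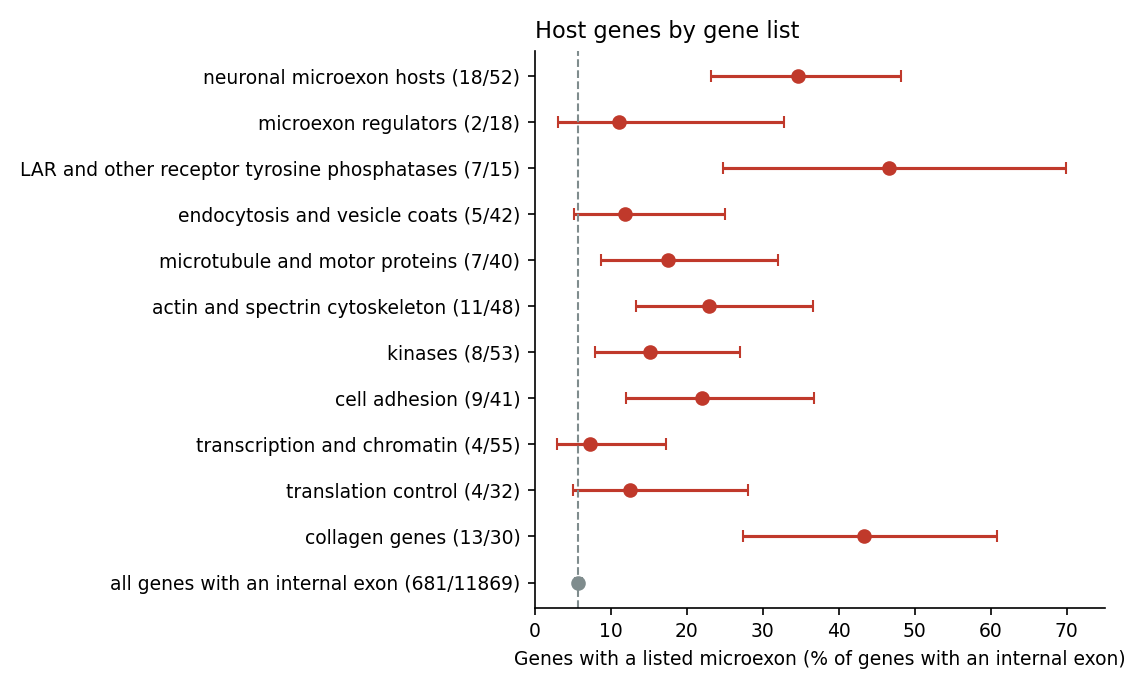
Share of listed genes with an internal exon that also have a listed microexon, in percent (horizontal axis), for each gene list reported here and for all genes (grey, dashed line at 5.74%); points are shares, bars 95% Wilson intervals, and the counts stand beside the names. Receptor tyrosine phosphatases (46.7%), collagen genes (43.3%) and neuronal microexon hosts (34.6%) lie farthest to the right. The neuronal list was defined by known microexons, and the collagen list was chosen after its values were seen.

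Among the regulators of microexons, of 24 genes in that list, 19 were listed and 18 had an internal exon. A microexon was listed in 2 (11.1%, 95% Wilson interval 3.10 to 32.8, which includes the 5.74% of all genes): RBFOX2 with 21 bases and the splicing coactivator SRRM1 with 18, neither found in the reference. SRRM4, RBFOX1, NOVA2, ELAVL3 and ELAVL4 were not listed, whereas SRRM3 and RBFOX3, which are among the neuronal markers below, were. A listing says only that a structure was given for a gene, not how much of it was present. Of 11 glioma and astroglial marker genes, 8 were listed, and GFAP, SOX2 and AQP4 were not. Of 10 neuronal marker genes, 8 were listed, and SRRM4 and NEFL were not. PRMT5 itself, named after its values were seen, had a listed 12-base exon (hg19 chr14:23390254-23390265, minus strand) between introns of 1119 and 115 bases, and its reference gene has no internal exon of that length.

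Collagen genes, a group picked after the values were seen, held many microexons. Collagens are built from repeats of glycine and a pair of further amino acids, so 9 bases encode each repeat. They held 37 microexons in 13 of 30 listed genes (43.3%, 95% Wilson interval 27.4 to 60.8), 36 of them multiples of 3 and 36 found in the reference. Of the 37, 28 were exactly 27 bases long, which is 18.9% of the 148 microexons of that length. Longer collagen exons were also often multiples of 9, in 763 of 1217 (62.7%), against 13.4% of the other internal exons. Without collagen genes, 391 of 744 microexons were multiples of 3 (52.6%).

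COL13A1, a transmembrane collagen, had 10 listed microexons, more than any other gene: 9 of 27 bases and 1 of 24. All 10 were found in the reference and only 1 of them was skipped there. Its 9 exons of 27 bases are shown because 8 of them carry the letters GG at every ninth base from the first, the start of the glycine codons; the whole microexon is in capitals, and all are on the plus strand of chromosome 10 (GRCh38).
COL13A1 at chr10:69878039-69878065: GGAGTAAAGGGCCAACCAGGCGAGAAG
COL13A1 at chr10:69888304-69888330: GGTCCCATTGGGCTGGACGGCAAACCG
COL13A1 at chr10:69889414-69889440: GGCCACCCAGGACCAAAGGGCGACATG
COL13A1 at chr10:69894552-69894578: GGTCTGACGGGTCCCCCAGGACAGCCG
COL13A1 at chr10:69894675-69894701: GGACCCCAGGGACAAAAAGGAGAAAAG
COL13A1 at chr10:69895550-69895576: GGTCAGTGTGGAGAGTACCCACACCGG
COL13A1 at chr10:69904933-69904959: GGCTTACCTGGGCCTCCTGGACCAAAG
COL13A1 at chr10:69919062-69919088: GGTGAGCCAGGGATCCCAGGAACCAAG
COL13A1 at chr10:69936756-69936782: GGGCTCCAAGGTGTTCCTGGACCAAAG
Over all collagen genes, 20 of 27 coding microexons of 27 bases had GG at every ninth base, against 2 of 94 other coding microexons of that length. The sixth exon shown is the exception in COL13A1.

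Other genes with many microexons fell into a group found in the reference and a group that was not. COL16A1 had 4 exons of 27 bases, COL17A1 also 4, of which 3 were found, and COL6A1 had 21, 21, 27 and 27 bases. BTN3A1 and BTN3A3, neighbouring genes of the butyrophilin family, each had exons of 21, 27, 27 and 27 bases, all found. These genes are close copies, so reads could be shared between them. By contrast, SEC14L1, a lipid-transfer protein family member, had 5 microexons of 13, 26, 13, 13 and 13 bases, and AHNAK2 had 4, AHNAK 3 and BIRC6 3. AHNAK and AHNAK2 are giant scaffold proteins and BIRC6 is a giant ubiquitin ligase. None of the exons of these 4 genes was found in the reference. Reads were not analysed here, and whether such unmatched exons come from splicing was not tested.

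Flanking introns were shorter around microexons than around longer exons. The upstream intron had a median of 1116 bases (95% order-statistic interval 919 to 1264; quartiles 330 and 3236). The median was 1349 in the other exons of the host genes (1301 to 1402) and 1491 in all other internal exons (1476 to 1506). The downstream intron had a median of 912 bases (744 to 1083; quartiles 229 and 2687), against 1300.5 (1247 to 1347) and 1394 (1381 to 1408). The upstream and downstream intervals of the microexons did not overlap those of the other exons. Set against the median of the same gene's other internal exons, the upstream intron was shorter for 428 of 777 microexons (55.1%) and the downstream intron for 431 (55.5%).

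**Figure D5:**
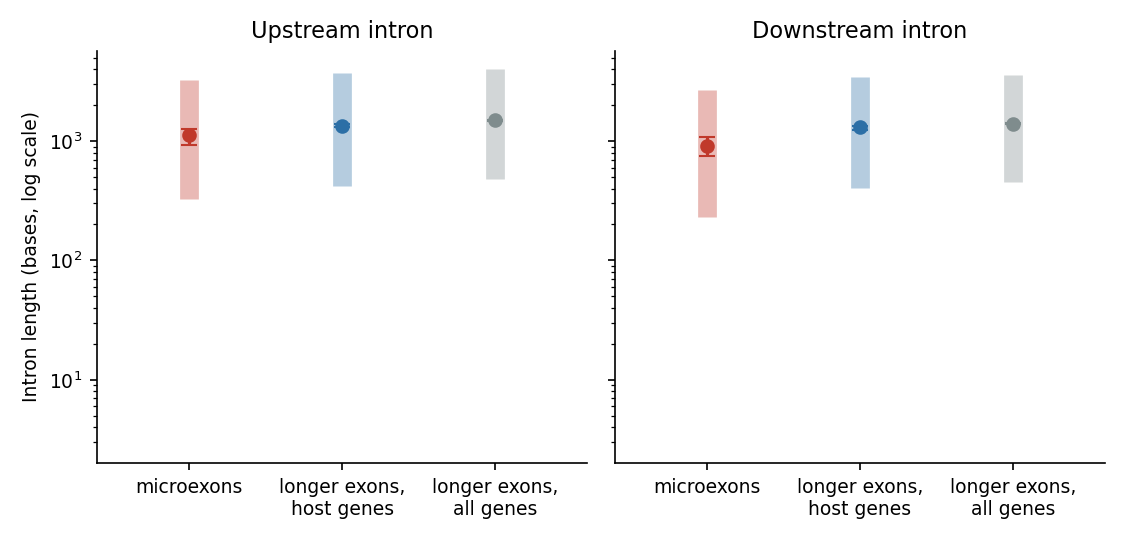
Length of the upstream (left) and downstream (right) intron in bases on a log scale, for microexons, longer exons of the host genes and longer exons of all genes; points are medians, error bars 95% order-statistic intervals and shaded bars the range between the quartiles. The microexon medians of 1116 and 912 bases are the lowest on each side, and the shaded ranges overlap widely.

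The difference was smaller in exons found in the reference. Those microexons had medians of 1229.5 bases upstream (1015 to 1450) and 1027 downstream (875 to 1253). The values for the other exons found were 1458 (1439 to 1474) and 1357 (1342 to 1373), and in the host genes' exons found 1312.5 (1265 to 1363) and 1256.5 (1207 to 1308). The upstream intervals overlapped in both comparisons, and the downstream intervals overlapped only in that with the host genes' exons. Microexons that the reference skips had longer flanks, with medians of 1437.5 bases upstream (1060 to 1915) and 1261.5 downstream (896 to 1535). For those it does not skip, the medians were 1097 (871 to 1371) and 920 (710 to 1179), and the intervals overlapped on both sides.

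Very short flanking introns were also listed. A flanking intron under 60 bases was listed for 20 microexons (2.56%, 95% Wilson interval 1.66 to 3.92), against 0.377% of the other exons in the host genes and 0.189% of all other internal exons. The smallest sums belonged to a 26-base exon of AHNAK between introns of 15 and 7 bases, a 26-base exon of SEC14L1 between introns of 13 and 52, and a 20-base exon of RAB34, a traffic GTPase, between introns of 4 and 72. AHNAK and SEC14L1 had no reference exon of that length, and RAB34 matched in 1 intron. Whether gaps this short are introns was not tested. The shortest flanking intron among the 540 found was 71 bases. At the other end, a 19-base exon of PTPRJ, a receptor phosphatase, lay between introns of 129049 and 2670 bases. A 19-base exon of ZRANB3, a DNA translocase, lay between 113508 and 37173 bases. A 27-base exon of PDE1C, a phosphodiesterase, lay between 18712 and 170692 bases. The PTPRJ and ZRANB3 exons were found in the reference, and the PDE1C exon matched in 1 intron.

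The 10 shortest microexons had 4 to 10 bases, and 2 of them were found in the reference. These were a 6-base exon of PHB2, a mitochondrial prohibitin, and a 9-base exon of PSAP, the precursor of the saposins. They are shown because they are the shortest with this second source.
PHB2 (chr12:6965911-6965916, minus strand): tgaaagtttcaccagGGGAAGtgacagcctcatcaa
PSAP (chr10:71823888-71823896, minus strand): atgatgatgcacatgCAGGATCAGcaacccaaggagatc
The other 8 were in WDR4 (4 bases), RECQL4 (6), RABL2A (7), AHNAK and CAMTA2 (8 each), and PVT1, PORCN and VKORC1 (10 each). Their reference genes have no internal exon of that length.

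Microexons were more often the second exon of an isoform than longer exons were. For each exon, the isoform with most exons was taken among the listed isoforms that hold it. There, 116 of 781 microexons were the second exon (14.9%, 95% Wilson interval 12.5 to 17.5). This compares with 5.46% of the other internal exons of the host genes and 9.45% of all others. The exon before the last was a microexon in 63 cases (8.07%, 6.36 to 10.2), against 4.56% and 6.80%; the second of these lies within that interval. The isoform taken had a median of 16 exons for microexons, against 25 for the other internal exons of the host genes and 18 for all others. A gene with more exons enters the comparison of exons more often, which these medians include. Positions were not compared for exons found in the reference alone. The microexons in second place include some with no reference exon of their length, such as those of SETD2, RABL2A and VKORC1.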

How the data were processed

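The deposited file is 1 exon annotation in GFF3 form, whose only numbers are exon positions in hg19 bases, as deposited by the authors for all 6 libraries together (3 EPZ015666, 3 DMSO). RSEM, DESeq 1.10.1, STAR 2.4.1d, bedtools 2.20.1 and Bowtie 1.0.1 appear in the submitters' processing notes, with GRCh37 and hg19 as builds and no step given for any. Filters on reads or isoforms are not given in the sources used here, and depth and replicate error are unknown.

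The file held 382567 exon rows, 31659 isoforms and 13721 gene names. An isoform was a run of rows of the same parent in order along the strand. The 76 rows with an end before their start were dropped. Exons were counted once by gene, chromosome, start, end and strand. Of exons of 3 to 27 bases, 34 that overlapped a neighbour in every listing were left out, and 0 members were first or last in another isoform. A further 4 internal exons had 1 or 2 bases. Where several introns flanked an exon, the shortest was used.

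GENCODE v29 (GRCh38) was compared by gene name (636 host genes) or a RefSeq synonym (25), on the same chromosome and strand, and then by exon and intron lengths, never by position; 20 host genes were not matched. Length matches can be coincidence. A reference microexon was listed as skipped if the gene had a listed intron as long as the reference intron that joins its neighbours, and as included if its length and both flanking introns were listed. Sequences are those of GENCODE v29 transcripts. No genome of the file's build was used, so intron sequence and splice sites were not read.

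Intervals are 95% Wilson intervals for shares and exact binomial order-statistic intervals for medians; both cover counting error only. No p-value was computed. On simulated structures of 2000 genes, 720 of 720 planted microexons and 587 of 587 skipped exons were recovered, and 0 others were called. Members, gene lists and comparisons were chosen with earlier results of these data known. Genes were named by rule: the 10 shortest microexons, the 10 genes with most, the neuronal hosts, up to 4 genes of each other list, and the 3 longest and 3 shortest flanks; others are marked as chosen after their values were seen. A host gene and 2 gene lists are not reported here. Python 3.11.15, numpy 2.4.6, scipy 1.17.1 and matplotlib 3.10.9 were used. Alternatives were other upper lengths, exons found in the reference only, 1 microexon a gene, longer introns only, collagen genes left out, other gene backgrounds and other matching rules.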

Additional observations from a re-analysis of the deposited data

How the results depend on the processing

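The upper length moved the values most. With limits of 15 and 51 bases there were 107 and 6229 microexons. The share in multiples of 3 was 64.5% at 15 bases, 50.4% at 30, 46.0% at 51 and 58.5% for exons found in the reference. In all alternatives run it stayed above the share in the other internal exons. All upper lengths used, 15, 27, 30 and 51 bases, are multiples of 3. These alternatives therefore do not show how the share depends on ending the range at another length. Median upstream introns were 655 and 1335 bases with limits of 15 and 51, and downstream introns 572 and 1099. The share of genes with a microexon was 6.73% in genes with 5 or more introns, 0.843%, 7.73% and 32.5% with limits of 15, 30 and 51 bases, and 3.99% for exons found in the reference. The share found in the reference was 75.3% where 1 flanking intron sufficed. The share skipped in the reference was 69.2% and 32.6% with limits of 15 and 51 bases, and the share of cassette microexons listed as skipped was 51.1% for 12 to 27 bases only. Skipping by a listed intron was 0% under every alternative run. The alternatives without collagen genes, and both measures of skipping through the reference with all their alternatives, were chosen after seeing the data. Exons that overlap a neighbour have no flanking intron there, so no flank value was computed with them kept. No paired analysis was possible because the annotation holds no values per library. Depth limits all of this in an unknown way. An exon missing from the list may be absent, rare, missed in alignment or removed by the submitters' filters, and these cannot be told apart.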
